A study of Mus musculus with 9 samples.

Results

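Quadriceps muscles of dystrophic mice without the mineralocorticoid receptor (MR) in myeloid cells (LysM-MRcko/mdx) were set against quadriceps of Cre-/mdx controls, across every transcript cluster of a Clariom D array. The comparison takes 6 of the 9 arrays of the series, 3 for each genotype, as the sample labels give it. Each array measured RNA of whole quadriceps from 1 mouse, and the labels call the mice biological replicates. The LysM-MRcko/mdx mice were heterozygous for LysM-Cre (LysM-Cre+/-) and carried floxed MR alleles (MR flox/flox) with the mdx mutation of dystrophin. The Cre-/mdx mice carried the same floxed alleles and the mdx mutation but no Cre, so all 6 mice were dystrophic and none had an unmodified MR gene. All were 8 weeks old with C57BL6/C57BL10 as strain, and each group held 2 males and 1 female. LysM-Cre is driven by the lysozyme 2 gene, which is active in monocytes, macrophages and neutrophils of the whole body, so the deletion is not limited to cells inside muscle. The other 3 arrays, of mice without MR in myofibers (MCK-MRcko/mdx), entered the estimate of the spread between mice and the choice of 1 transcript cluster per gene.

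MR, encoded by Nr3c2, is a nuclear receptor that binds aldosterone and also glucocorticoids, and it regulates transcription in many cell types besides those of the kidney. Muscle fibers of mdx mice lack dystrophin, which links the cytoskeleton to the extracellular matrix, and go through repeated degeneration and regeneration. Macrophages that enter the damaged muscle clear dead fibers and send signals to muscle stem cells and to fibroblasts, which deposit matrix. The comparison addresses which transcripts of dystrophic muscle differ when MR is absent from myeloid cells.

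The values are log2 signals, on which a difference of 1 is a 2-fold change, and they are given for replicates 1, 2 and 3 in this order. Single mice are called knockout 1, 2 and 3 (LysM-MRcko/mdx) and control 1, 2 and 3 (Cre-/mdx). Acta1 and Myh4, which encode actin and the fastest myosin of skeletal muscle, lay at the upper limit of the scale, 19.93, in all 6 arrays, and Ckm, the muscle creatine kinase, had values between 19.12 and 19.54. Array medians lay between 4.70 and 4.78. Nr3c2 had log2 signals of 6.89, 6.89 and 6.96 in LysM-MRcko/mdx muscles, against 6.89, 7.12 and 7.06 in Cre-/mdx muscles. The groups touched at 6.89, and a signal from all cells of the muscle and from the whole transcript is a weak check of a deletion in myeloid cells. Lyz2, the gene that drives Cre, had 17.85, 17.23 and 17.47 in LysM-MRcko/mdx muscles and 16.95, 17.88 and 18.03 in Cre-/mdx muscles, and these groups overlapped.

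A gene, represented by 1 transcript cluster per symbol, counted as changed when its groups differed 2-fold or more with an unadjusted p under 0.05 in limma, and "rose" and "fell" are used only of changed genes. Of 30707 genes, 155 were changed, which is 0.505%. In LysM-MRcko/mdx muscles 118 genes rose (0.384%) and 37 fell (0.12%), and the median difference over all genes was 0. All knockout values lay on 1 side of all control values for 135 of the 155 changed genes, and for 7.83% of all genes. The 155 were picked from the same values by size and p, so their separation follows largely from that choice and adds no support. No gene passed an adjusted p under 0.05 in limma, where 2072 genes (6.75%) had an unadjusted p under 0.05 and the smallest adjusted p was 0.696. With 3 mice against 3, an exact two-sided permutation test cannot give a p below 0.10. The changed genes are therefore a description of these 6 muscles by size and spread, and p-values measure only the spread between these mice.

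**Figure D1:**
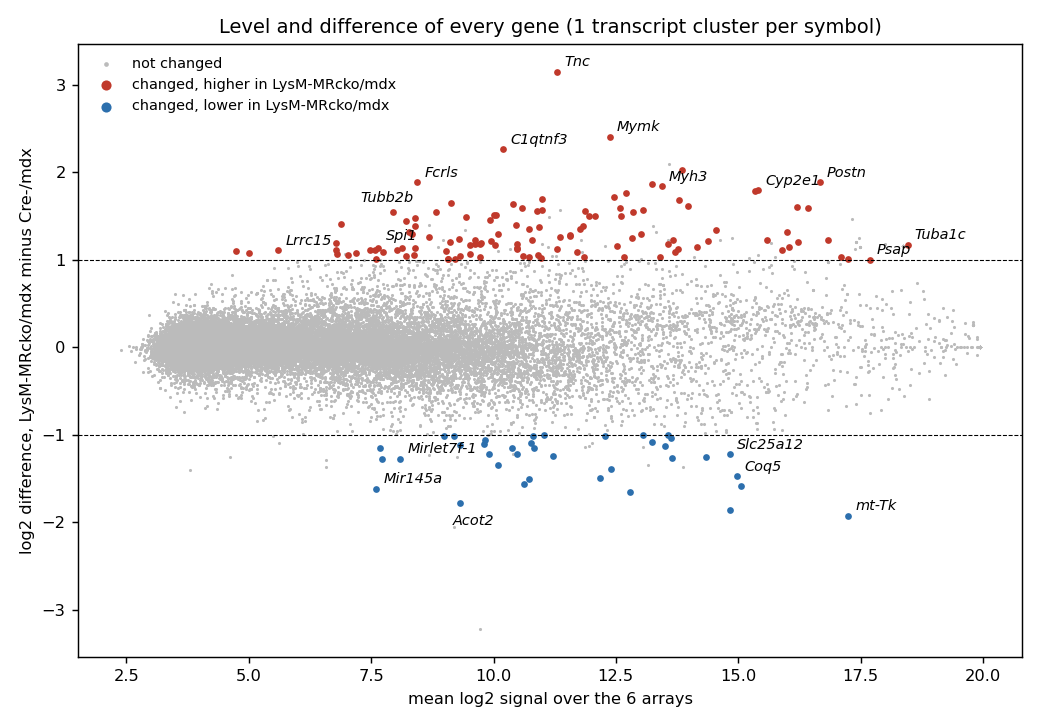
Every gene is plotted by its mean log2 signal over the 6 arrays (x axis) and its log2 difference, LysM-MRcko/mdx minus Cre-/mdx (y axis). Red points are the 118 genes that rose, blue points the 37 that fell and gray points all others, and dashed lines mark the 2-fold limits. Tnc lies highest at 3.15, and the genes that fell reach -1.93 at mt-Tk.

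The highest differences belonged to genes of matrix, macrophages and new muscle fibers. Tnc, which encodes the matrix glycoprotein tenascin C of healing tissue, had log2 signals of 13.80, 12.54 and 12.28 in LysM-MRcko/mdx muscles, against 9.99, 8.84 and 10.35 in Cre-/mdx muscles. Every knockout muscle lay above every control muscle by more than 1 unit, and the difference of 3.15 ± 0.53 (SE) is 8.86-fold. Mymk, which encodes the membrane protein myomaker required for fusion of myoblasts, had 14.83, 13.35 and 12.55 in LysM-MRcko/mdx muscles, against 10.73, 10.94 and 11.84 in Cre-/mdx muscles. Its difference was 2.41 ± 0.73 (SE), and knockout 1 was the highest of all. C1qtnf3, a secreted relative of C1q, had 11.54, 11.08 and 11.38 in LysM-MRcko/mdx muscles and 9.22, 8.94 and 9.05 in Cre-/mdx muscles. The difference was 2.26 ± 0.23 (SE), and the 3 values of each group lay close together.

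Not all mice contributed equally to these lists. Among the 118 genes that rose, knockout 1 was the highest knockout muscle for 104, and control 1 was the lowest control for 81. Among the 37 genes that fell, knockout 1 was the lowest knockout for 30, and control 1 the highest control for 25. Both of these mice were male. Without knockout 1, 70 genes were changed, 51 higher and 19 lower, and without knockout 2, 241 were, 178 higher and 63 lower. Without control 3, 317 genes were changed, 191 higher and 126 lower. A total of 45 genes, 35 higher and 10 lower, kept the call whichever of the 6 arrays was left out.

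Many macrophage genes rose. Of 24 markers of macrophages and monocytes measured, 16 rose and none fell, with a median difference of 1.15. The mean log2 signal over the 24 markers was 11.47, 10.86 and 10.96 in LysM-MRcko/mdx muscles, against 9.66, 10.16 and 10.23 in Cre-/mdx muscles, and the groups did not overlap. Spi1, which encodes the transcription factor PU.1 that directs myeloid development, had 9.62, 8.97 and 8.79 in LysM-MRcko/mdx muscles, against 7.03, 7.53 and 8.40 in Cre-/mdx muscles, a difference of 1.47 ± 0.37 (SE). Csf1r, the receptor for the growth factor that macrophages need to survive, rose by 1.26 ± 0.18 (SE), and Itgam, the integrin CD11b of myeloid cells, rose by 1.37 ± 0.18 (SE). Itgam values were tightly grouped in the controls, at 10.19, 10.28 and 10.23, and higher in every LysM-MRcko/mdx muscle, at 12.05, 11.38 and 11.39. Fcrls, a Fc receptor-like scavenger receptor of mouse macrophages and microglia, had 10.38, 9.10 and 8.68 in LysM-MRcko/mdx muscles, against 6.91, 7.16 and 8.43 in Cre-/mdx muscles, and the closest pair of mice was 0.25 apart. Mpeg1, the pore-forming perforin-2 of phagocytes, rose by 1.56, and Fcer1g, a signaling chain of Fc receptors, by 1.70. Markers that were not changed included the scavenger receptor gene Cd163, at -0.01, and the mannose receptor gene Mrc1, at 0.70. Lyz2 differed by -0.10, but it is the gene that drives Cre in the knockouts. Its level is therefore not a plain measure of macrophages in this comparison. Without knockout 1, 7 of the 24 markers rose and the median was 0.89, and without control 1, 10 rose and the median was 1.05. In RNA of whole muscle, more cells of a type and more RNA per cell cannot be told apart.

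Markers of other immune cells were not called. Of 13 markers of T and NK cells none was changed, against 0.505% of all genes, and the median was 0.09. The mean signals of this list lay between 4.79 and 5.03, near the array medians, where a change could hardly be seen. Of 14 neutrophil markers none was changed either, and the median of 0.10 rested on control 2. The neutrophil median against the control mean was 0.25, 0.01 and 0.02 in LysM-MRcko/mdx muscles and -0.21, 0.79 and -0.29 in Cre-/mdx muscles, and without control 2 the median difference was 0.53, still with no marker called. S100a8 and S100a9, which encode the abundant calcium-binding proteins of neutrophils, differed by 0.23 and -0.52 with overlapping groups. The lists for B and plasma cells, dendritic cells, and mast cells and eosinophils had no changed member. The list for B and plasma cells was as dim as that for T and NK cells, with mean signals between 4.82 and 5.09, and the dendritic cell list lay between 5.38 and 5.64. The macrophage genes that are tied to a named state were also mostly not called. Of 20 scavenger and repair receptors, 16 had a positive difference, with a median of 0.26. The groups did not overlap for 8 of the 20, against 7.83% of all genes. Of the 20, 2 rose, against 0.384% of all genes: Folr2 (1.28), a folate receptor of resident macrophages, and Trem2 (1.08), a lipid-sensing receptor. Both calls rested on single mice: Folr2 was not called without control 1 (0.76), knockout 1 (1.08) or knockout 3 (1.32), and Trem2 not without control 1 (0.93) or knockout 1 (0.70). Arg1, an arginase of reparative macrophages, differed by 0.11 and Tnf, an inflammatory cytokine, by 0.14.

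The promoters of 3 of the macrophage genes whose calls did not depend on any 1 array are shown to set the measurements beside the DNA that a myeloid factor could read. PU.1 binds a core of the letters GAGGAA, and these letters, searched on both strands (TTCCTC on the other), are in capitals in the RefSeq promoters of Cd68, Itgam and Ctss, from 250 bases before to 50 after the start of the gene in build GRCm38.p6.
Cd68: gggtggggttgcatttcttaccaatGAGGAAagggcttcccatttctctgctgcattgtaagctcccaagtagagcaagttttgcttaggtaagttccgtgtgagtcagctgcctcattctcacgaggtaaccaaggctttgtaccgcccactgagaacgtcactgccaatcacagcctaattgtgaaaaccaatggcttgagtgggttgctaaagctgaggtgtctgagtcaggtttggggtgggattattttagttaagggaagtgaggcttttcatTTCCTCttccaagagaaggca
Itgam: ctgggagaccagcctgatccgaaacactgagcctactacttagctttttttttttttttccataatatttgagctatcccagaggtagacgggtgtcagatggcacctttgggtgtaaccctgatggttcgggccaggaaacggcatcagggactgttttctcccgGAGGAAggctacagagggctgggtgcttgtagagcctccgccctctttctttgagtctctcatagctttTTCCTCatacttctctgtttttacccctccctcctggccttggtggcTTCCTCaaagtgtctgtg
Ctss: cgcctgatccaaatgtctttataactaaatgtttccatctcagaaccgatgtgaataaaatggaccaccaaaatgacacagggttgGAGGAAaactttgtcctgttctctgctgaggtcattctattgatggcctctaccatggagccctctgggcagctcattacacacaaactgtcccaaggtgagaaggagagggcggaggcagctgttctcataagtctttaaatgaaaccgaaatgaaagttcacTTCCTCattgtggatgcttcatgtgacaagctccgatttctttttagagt
The window lies at chr11:69666121-69666420 on the minus strand for Cd68, at chr7:128062390-128062689 on the plus strand for Itgam and at chr3:95526536-95526835 on the plus strand for Ctss, and it holds the letters at 2, 3 and 2 places in these genes, in this order. These 3 promoters were picked by name and are not typical of their group. The promoters of C3ar1, Itgax, Mpeg1 and Lgmn, whose calls also held without any 1 array, do not hold the letters. The letters were present in 7652 of 27025 RefSeq promoters (28.3%), in 33 of 78 promoters of genes that rose (42.3%) and in 5 of 25 promoters of genes that fell. Among changed macrophage markers they were in 7 of 11 promoters. AGAACA, letters that steroid receptors such as MR read (TGTTCT on the other strand), was in 20 of 78 promoters of genes that rose (25.6%), in 4 of 25 of genes that fell and in 5139 of all 27025 promoters. CACGTG, the letters read by TFEB, a factor that drives lysosomal genes, was in 2 of 78 promoters of genes that rose and in 7.24% of all promoters. TGANTCA, the AP-1 site, was in 13 of 78 promoters of genes that rose, in 5 of 25 of genes that fell and in 7.93% of all. CAGCTG, the E-box of myogenic factors, was in 19 of 78 promoters of genes that rose, in 6 of 25 of genes that fell and in 16.1% of all. Of the 155 changed genes, 103 had a promoter in the table, and letters in a promoter are a description and not evidence of binding.

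Some genes of Fc receptor signaling and of the Toll-like receptors rose, but no Fc receptor for IgG was among them. Of 15 genes of Fc receptors, ITAM signaling chains and related receptors measured, all 15 had a positive difference and the median was 0.78. Those that rose were 4: the signaling chains Fcer1g and Tyrobp, and the receptors Sirpa and Trem2. Sirpa, the receptor for the "do not eat me" signal CD47, rose by 1.35, or by 0.96 and below the 2-fold limit without knockout 1. Tyrobp, the adaptor DAP12, rose by 1.48 and was not called without control 1 (0.95) or knockout 1 (1.23). Of 17 Toll-like receptors and adaptors, 5 rose (Unc93b1, Tlr9, Tlr13, Cd180 and Ly86), none fell, and the median was 0.61. Unc93b1, which carries the receptors for nucleic acids to the endosome, had 9.70, 8.88 and 9.37 in LysM-MRcko/mdx muscles, against 7.56, 8.14 and 8.46 in Cre-/mdx muscles, and its groups did not overlap. Tlr9, for DNA, rose by 1.05 and was not called without control 1 (0.86) or knockout 1 (0.93), and Tlr13, for bacterial ribosomal RNA in mice, rose by 1.14, or by 0.80 and not called without knockout 1. Tlr7, for single-stranded RNA, had 12.80, 12.85 and 10.79 in LysM-MRcko/mdx muscles and 9.90, 10.11 and 11.71 in Cre-/mdx muscles, so replicates 1 and 2 of the knockout lay far above the controls but replicate 3 did not, and it was not called. Of receptors at the cell surface, Cd180 (1.51) and its partner Ly86 (1.59) rose, while Tlr2 and Tlr4, for bacterial lipoproteins and lipopolysaccharide, differed by 0.04 and 0.03. Cd180 was not called without control 1 (1.01), control 2 (1.63) or knockout 1 (1.05), and Ly86 not without the same 3 mice (1.09, 1.62 and 1.24). Without knockout 1, 1 gene of each of these lists rose, and without control 1, 2 of each did.

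Lysosomal genes were higher almost throughout. All 20 lysosomal proteases and hydrolases measured had a positive difference, 9 rose, none fell, and the median was 0.97. Lgmn, which encodes the protease legumain, had 15.54, 14.30 and 14.52 in LysM-MRcko/mdx muscles, against 12.78, 13.06 and 13.68 in Cre-/mdx muscles. Ctss, a cathepsin of antigen-presenting cells, had 17.96, 16.86 and 16.84 in LysM-MRcko/mdx muscles and 15.20, 16.09 and 15.61 in Cre-/mdx muscles. For both genes the lowest knockout muscle was above the highest control. Ctsz, another cathepsin, rose by 1.38 ± 0.30 (SE), and Hexa, which breaks down gangliosides, by 1.5 ± 0.33 (SE). Pld3, which degrades nucleic acids in lysosomes, rose by 1.23, and its relative Pld4, not part of the list, by 1.64. Gaa, the acid glucosidase that degrades glycogen and is needed in muscle fibers themselves, differed by 0.06 and was the lowest of the 20. Grn (1.35), the gene of progranulin, lost its call without control 1 (1.30), control 2 (1.30), knockout 1 (1.08) or knockout 3 (1.40). Among 17 genes of the lysosomal membrane and its proton pump, 3 rose, Gpnmb, Laptm5 and Slc11a1, with a median of 0.46. Without knockout 1, 5 of the 20 proteases and hydrolases and none of the 17 membrane genes rose, and none of the membrane genes rose without control 1.

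About as many complement genes as not were changed, and few genes of antigen presentation. Of 15 complement genes measured, 7 rose and 1 fell, with a median of 0.78, and without knockout 1, 4 rose and none fell. The genes that rose were those of C1q (C1qa, C1qb and C1qc), the receptors C3ar1 and Itgax, and the components C4b and Cfb, while Cd59a, an inhibitor of the membrane attack complex, fell by 1.35. C1qa (1.18) was not called without control 1 (0.78) or knockout 1 (0.90), C1qb (1.78) not without knockout 1 (1.6), and Cfb (1.05) not without control 1 (0.88), knockout 1 (0.93) or knockout 3 (0.98). Cd59a was not called without control 1 (-1.27), control 2 (-1.03), knockout 1 (-1.07) or knockout 2 (-1.25). C4b, a component of the classical pathway, had 9.32, 9.79 and 10.63 in LysM-MRcko/mdx muscles and 8.54, 8.95 and 8.53 in Cre-/mdx muscles. Unlike most changed genes, it was highest in knockout 3, and without that mouse the difference was 0.88 and not called. Of 12 genes for antigen presentation on MHC class II, 3 rose, the class II chain gene H2-Ab1 (1.18), Ctss and Ifi30, while Ciita, the master regulator of class II transcription, differed by 0.07. H2-Ab1 was not called without control 1 (0.97), control 2 (1.05) or knockout 3 (1.03). Of 13 genes for MHC class I, 2 rose, H2-K1 (1.27) and H2-D1 (1.23), and neither was called without control 1 (0.91 and 0.83). In the same list Mr1, whose protein presents vitamin metabolites, fell by 1.10, and it was not called without control 1 (-0.82), control 2 (-1.03) or knockout 1 (-0.95). Of 22 interferon-stimulated genes 1 rose, Irf7 (1.13), with overlapping groups. Irf7, a factor of the interferon response, was not called without control 1 (0.79), knockout 1 (0.81) or knockout 3 (1.08).

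**Figure D2:**
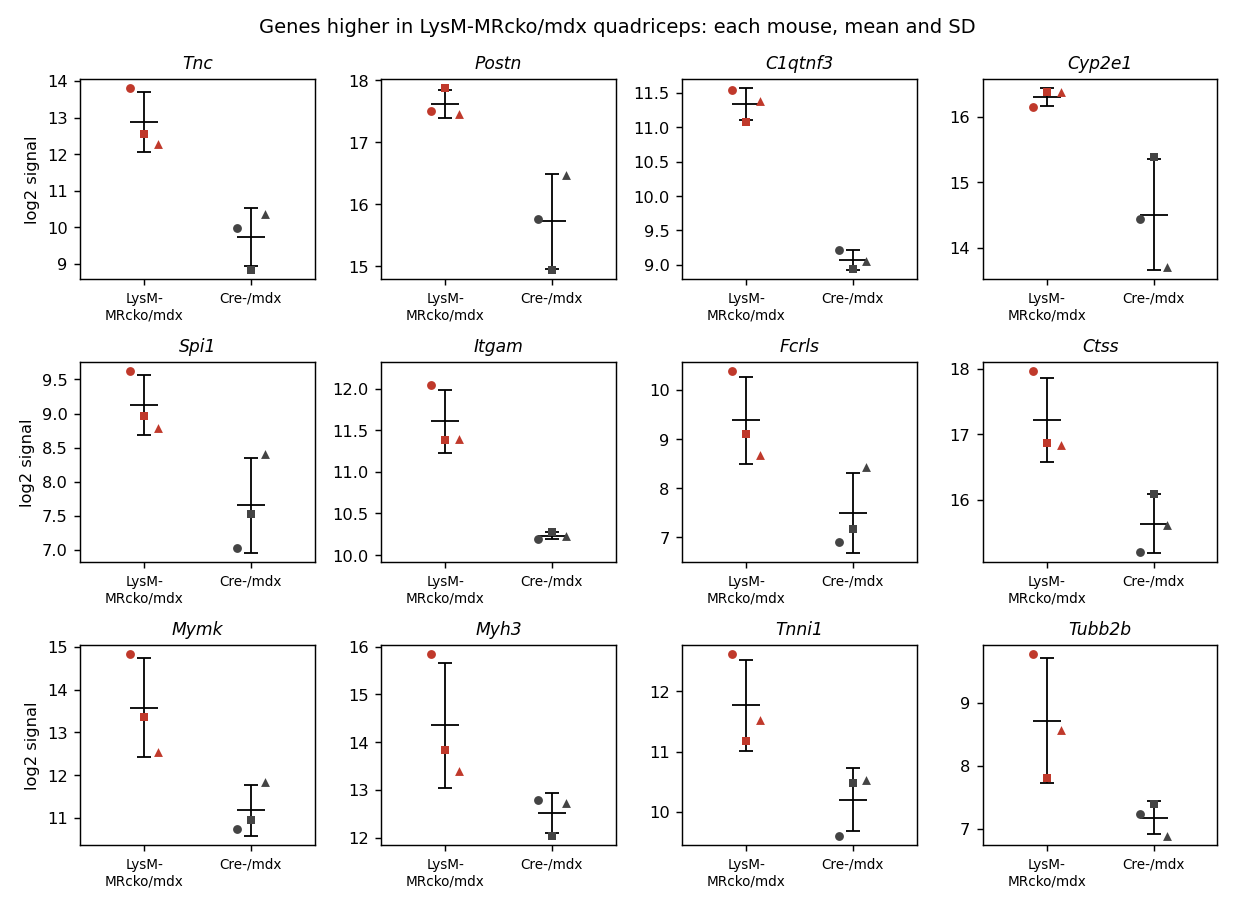
Log2 signals (y axis) of 12 genes that rose, in LysM-MRcko/mdx (red) and Cre-/mdx muscles (dark gray), with circles for replicate 1, squares for replicate 2, triangles for replicate 3, and the mean and SD of 3 mice in black. In each of the 12 genes the lowest LysM-MRcko/mdx muscle lies above the highest Cre-/mdx muscle, with the smallest gap for Fcrls, between 8.68 and 8.43. Axes do not start at 0.

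Fibroblast genes of healing and scarring tissue were among those that rose, while the main collagens were not called. Of 20 markers of activated fibroblasts and myofibroblasts measured, 10 rose, none fell, and the median was 1.01. Postn, the matrix protein periostin, had 17.51, 17.87 and 17.45 in LysM-MRcko/mdx muscles, against 15.76, 14.94 and 16.47 in Cre-/mdx muscles, a difference of 1.89 ± 0.36 (SE). Its knockout values were within 0.42 of each other. Loxl1, which cross-links elastin and collagen, had 11.30, 10.91 and 11.29 in LysM-MRcko/mdx muscles and 9.67, 9.34 and 10.30 in Cre-/mdx muscles. Cilp, a matrix protein of cartilage and fibrotic tissue, rose by 1.55, Tgfbi, a matrix protein induced by TGF-beta, by 1.29 and Lrrc15, a membrane protein of myofibroblasts, by 1.11. These 5 genes and Tnc kept their calls whichever array was left out. Fn1, the gene of fibronectin, rose by 1.6 and was not called without control 2 (1.00) or knockout 3 (1.33). Mmp14, a membrane-bound collagenase, rose by 1.5 and was not called without control 1 (1.27) or control 2 (1.29). Acta2, an actin that myofibroblasts share with smooth muscle, rose by 1.22 and was not called without control 2 (0.90) or knockout 1 (0.97). Fap, a surface protease of activated fibroblasts, differed by -0.11. Without control 2, 6 of the 20 markers rose and the median was 0.87.

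Of 16 fibrillar and network collagens, 15 had a positive difference, with a median of 0.63, but none was changed. Col1a1, the main collagen of scars, had 16.33, 15.82 and 16.26 in LysM-MRcko/mdx muscles, against 15.73, 13.90 and 15.96 in Cre-/mdx muscles. The groups overlapped, and the lowest value by far was that of control 2. Without that mouse the median of the 16 collagens was 0.18, and it was 0.80 without control 3. Of 15 genes for collagen cross-linking and folding, 1 rose, Loxl1, and Lox, the lysyl oxidase that starts cross-linking, had 12.24, 12.08 and 11.83 in LysM-MRcko/mdx muscles and between 10.85 and 11.67 in Cre-/mdx muscles, a difference of 0.88 below the 2-fold limit. Of 17 genes of the TGF-beta pathway none was changed. Tgfb1, its main ligand in muscle, differed by 0.58. Of 13 markers of fibro-adipogenic progenitors, the resident fibroblast precursors of muscle, none was changed, and the median of -0.01 became 0.21 without knockout 1 and -0.21 without knockout 3.

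Some genes of regenerating fibers and several tubulins rose. Of 14 genes of the embryonic sarcomere and of fetal muscle measured, 3 rose and none fell, with a median of 0.43. Myh3, the embryonic myosin of newly formed fibers, had 15.84, 13.83 and 13.39 in LysM-MRcko/mdx muscles, against 12.78, 12.04 and 12.73 in Cre-/mdx muscles. Knockout 1 stood 2.01 above the next knockout muscle, and without it the difference was 1.09 in place of 1.84, while the call was lost without control 2 (1.6). Tnnt2, the cardiac troponin T of fetal muscle, rose by 1.71, or by 1.07 without knockout 1, and was not called without control 1 (1.57). Chrna1, a subunit of the acetylcholine receptor, rose by 1.5 and was not called without control 1 (1.65), control 2 (1.14), control 3 (1.70) or knockout 1 (0.85). Tnni1, the slow troponin I that new fibers also express, had 12.62, 11.17 and 11.52 in LysM-MRcko/mdx muscles and 9.60, 10.47 and 10.53 in Cre-/mdx muscles, and it kept its call without any 1 array. Of 12 genes of slow fibers Tnni1 alone rose, and Myh7, the slow myosin, differed by 0.17. Among 19 regulators of satellite cells and myogenesis, Mymk rose and Mstn fell. Myog, which drives myoblasts to differentiate, had 12.60, 11.71 and 11.29 in LysM-MRcko/mdx muscles and 10.50, 9.80 and 10.85 in Cre-/mdx muscles, without overlap, but with a difference of 1.48 ± 0.72 (SE) it was not called. Pax7, the factor of quiescent satellite cells, differed by 0.25. Of 28 proliferation genes, 27 had a positive difference, and the median of 0.35 became 0.11 without knockout 1 and 0.16 without control 2. The list's median against the control mean was 0.78, 0.02 and 0.16 in LysM-MRcko/mdx muscles and 0.11, -0.29 and 0.21 in Cre-/mdx muscles, so that knockout 1 was high and the other mice overlapped. Of these genes 1 rose, Plk1 (1.11), a mitotic kinase whose groups touched and that was not called without control 1 (1.04), control 2 (0.84) or knockout 1 (0.68).

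Of 12 tubulin genes measured, 5 rose, Tuba1a, Tuba1c, Tubb2a, Tubb2b and Tubb6, none fell, and the median was 0.72. Tubb2b had 9.77, 7.81 and 8.57 in LysM-MRcko/mdx muscles, against 7.24, 7.40 and 6.89 in Cre-/mdx muscles, and knockout 1 was highest. Its difference was 1.54 ± 0.46 (SE), or 1.01 without that mouse, and it is the tubulin whose call did not depend on 1 array. Tubb6, which is known to be raised in dystrophic and regenerating mouse muscle, rose by 1.56, with controls between 10.07 and 10.13, and by 0.99 and not called without knockout 1. Tuba1a (1.32) and Tuba1c (1.17) were not called without knockout 1 either, at 0.94 and 0.85. Tubb2a (1.19) was not called without control 1 (1.29), control 2 (1.17), control 3 (1.12), knockout 1 (0.62) or knockout 3 (1.28). Without knockout 1, Tubb2b alone of the 12 rose. Tuba8, a tubulin of mature muscle, had the lowest difference, -0.39. Tubulin genes are close copies of each other, and probes for one may take up signal from another.

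**Figure D3:**
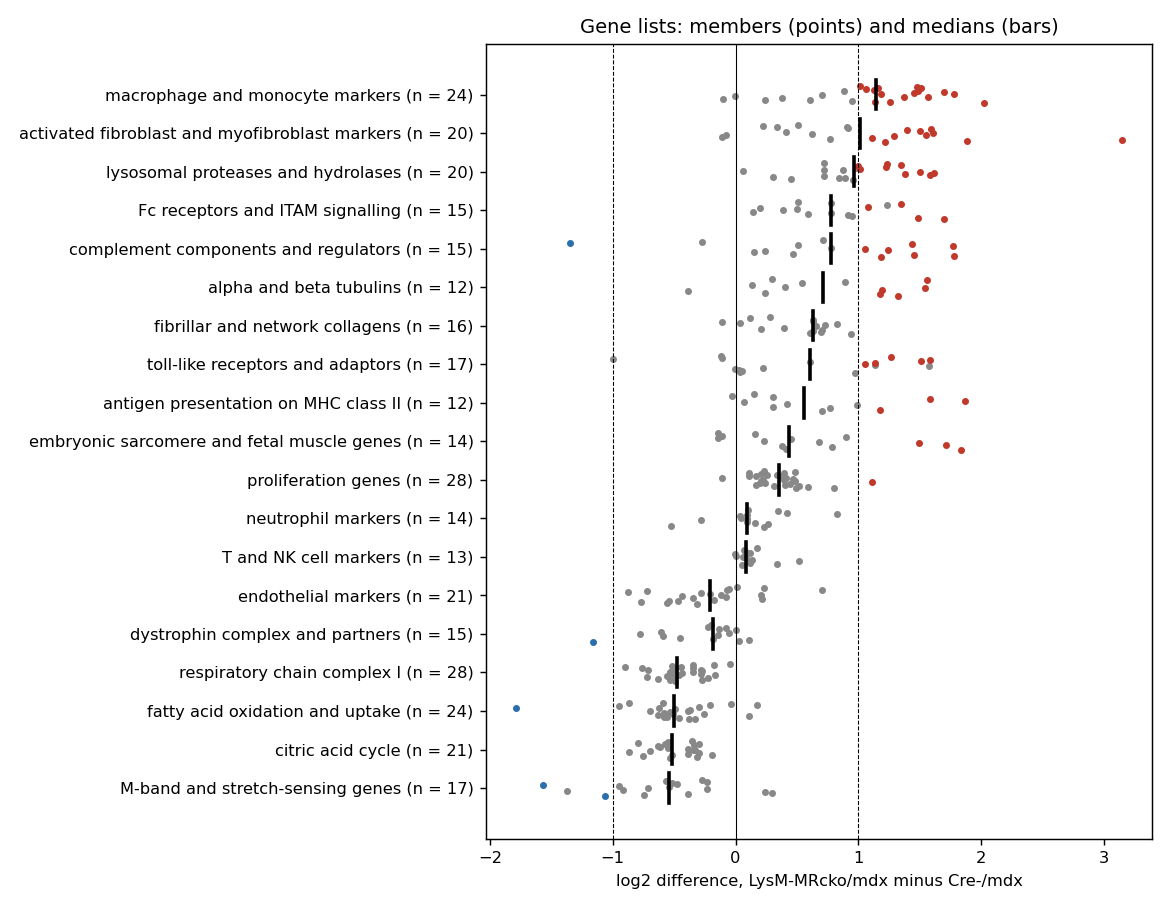
Log2 differences, LysM-MRcko/mdx minus Cre-/mdx (x axis), of the members of 19 gene lists (rows, with the number measured). Red points rose, blue points fell, gray points were not changed, and black bars are medians, which run from 1.15 for the macrophage markers to -0.54 for the genes of the M-band and stretch sensing.

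Most listed genes of the mature contractile fiber were not called. Of 17 genes of the M-band and of stretch sensing, 2 fell, against 0.12% of all genes, none rose, and the median was -0.54. Of the 2, Lrrc39 is the M-band gene, while the paper ties Lrtm1 to myoblast differentiation. Lrtm1, which encodes a leucine-rich membrane protein of muscle, had 9.37, 9.66 and 10.48 in LysM-MRcko/mdx muscles, against 11.64, 11.31 and 11.26 in Cre-/mdx muscles, a difference of -1.57 ± 0.31 (SE). The call held without any 1 array. Lrrc39, an M-band protein also called myomasp, had 9.27, 9.34 and 9.28 in LysM-MRcko/mdx muscles and 10.40, 10.74 and 9.93 in Cre-/mdx muscles. The knockout muscles lay within 0.07 of each other, and without control 2 the difference was -0.87 in place of -1.06 and not called. Ankrd1, a stretch-induced protein of the titin spring, had 13.01, 13.69 and 12.83 in LysM-MRcko/mdx muscles and 15.25, 14.47 and 13.93 in Cre-/mdx muscles, and at -1.37 ± 0.62 (SE) it was not called. Without knockout 1 the median of the list was -0.35, and without control 1 it was -0.33.

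Dmd, the dystrophin gene whose transcript carries the mdx mutation in all 6 mice, had 9.35, 10.46 and 9.61 in LysM-MRcko/mdx muscles, against 11.52, 10.90 and 10.47 in Cre-/mdx muscles. It fell by 1.16 on the log2 scale, the closest mice of the groups differed by 0.01, and it was not called without control 1 (-0.88), control 2 (-1.19), knockout 1 (-0.93) or knockout 3 (-1.06). Of 15 genes of the dystrophin complex and its partners it was the only one changed, and the median was -0.18. Sgcd, a sarcoglycan of that complex, had 8.26, 8.13 and 8.36 in LysM-MRcko/mdx muscles and 8.98, 8.82 and 8.71 in Cre-/mdx muscles, a separate but less than 2-fold difference of -0.59 ± 0.12 (SE). Utrn, the dystrophin relative utrophin, differed by 0.03. Mstn, the inhibitor of muscle growth myostatin, had 8.37, 9.54 and 9.98 in LysM-MRcko/mdx muscles, against 11.13, 10.10 and 10.32 in Cre-/mdx muscles. Replicate 1 was the lowest knockout and the highest control, and the difference was -0.76 without knockout 1 and -0.91 without control 1, in place of -1.22, with no call in either case. Of 18 genes of the fast sarcomere none was changed, with a median of 0.00, but 7 of them lay at the upper limit in all 6 arrays, where a change cannot be seen.

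**Figure D4:**
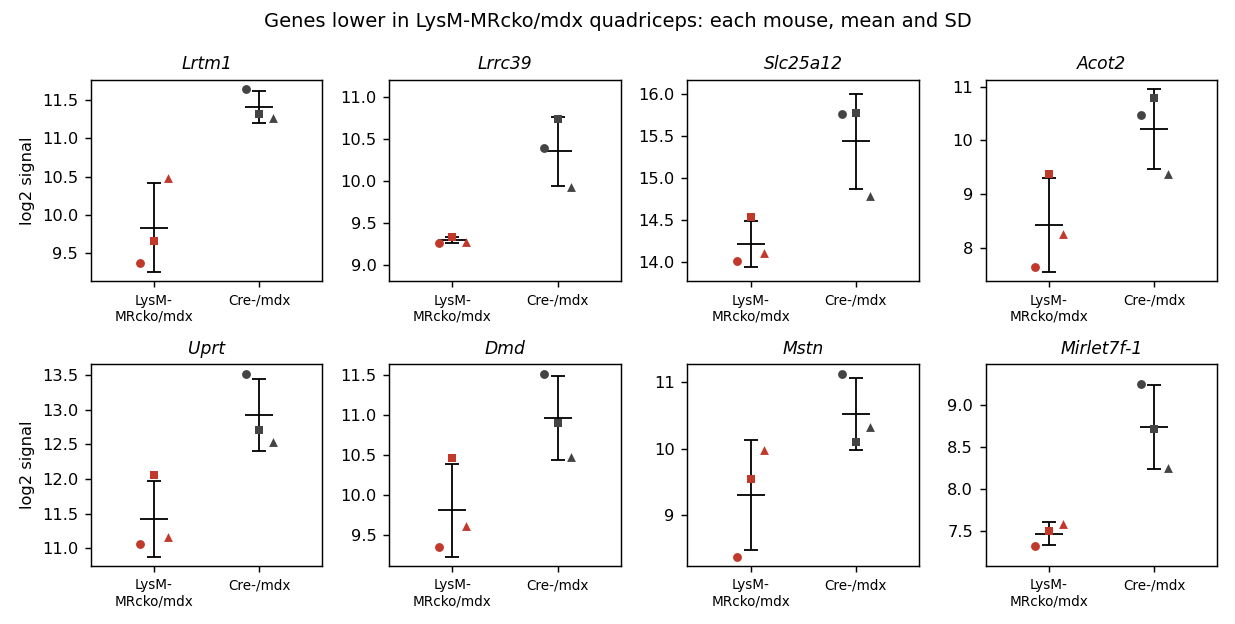
Log2 signals (y axis) of 8 genes that fell, in LysM-MRcko/mdx (red) and Cre-/mdx muscles (dark gray), with circles for replicate 1, squares for replicate 2, triangles for replicate 3, and the mean and SD of 3 mice in black. Lrrc39 and Mirlet7f-1 have the tightest LysM-MRcko/mdx values, and for Acot2 the highest knockout and the lowest control muscle are equal at 9.38. Axes do not start at 0.

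Mitochondrial and metabolic genes were lower by less than 2-fold, with a few exceptions. Slc25a12, the mitochondrial carrier that exports aspartate, had 14.01, 14.53 and 14.10 in LysM-MRcko/mdx muscles, against 15.76, 15.77 and 14.78 in Cre-/mdx muscles, and its difference of -1.22 ± 0.30 (SE) was called without any 1 array. Acot2, a mitochondrial acyl-CoA thioesterase, fell by 1.78, and Coq5, a methyltransferase of ubiquinone synthesis, fell by 1.47, and neither call depended on 1 array. Uprt, named for uracil phosphoribosyltransferase, had 11.07, 12.06 and 11.16 in LysM-MRcko/mdx muscles and 13.52, 12.71 and 12.54 in Cre-/mdx muscles. Of 21 genes of the citric acid cycle, all 21 had a negative difference, with a median of -0.52, and none was changed. The same held for all 28 subunits of respiratory complex I, with a median of -0.48. Of 24 genes of fatty acid oxidation and uptake, 22 were below 0 and Acot2 alone fell. These medians rested on control 2, a female: the median over the citric acid cycle, each gene taken against the control mean, was -0.43, -0.55 and -0.35 in LysM-MRcko/mdx muscles, and -0.24, 0.56 and -0.32 in Cre-/mdx muscles, so 1 control stood above all other mice. Without it the medians were -0.18 for the citric acid cycle, -0.19 for complex I and -0.06 for fatty acid oxidation. Against this direction, Cox6a1, a subunit of complex IV outside muscle and heart, rose by 1.03, while the other 24 subunits of complexes III to V had negative differences. Cox6a1 was not called without control 2 (0.85) or knockout 1 (0.88).

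**Figure D5:**
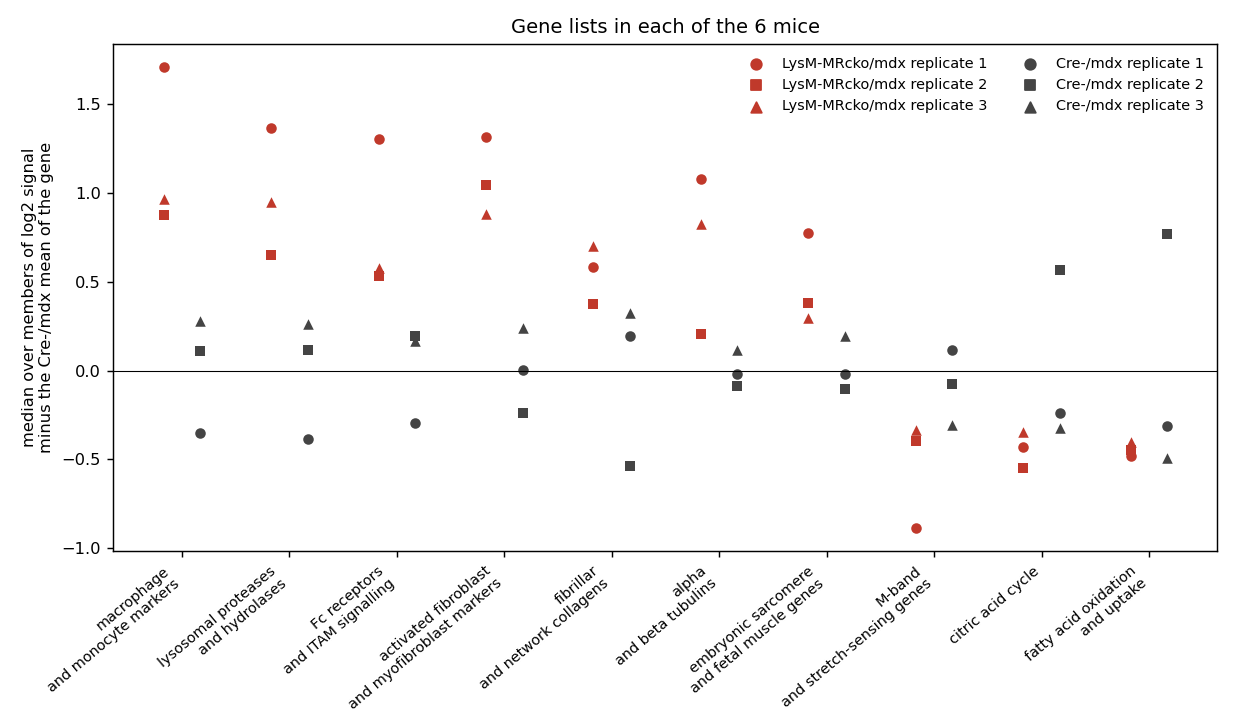
Median over the members of 10 gene lists of the log2 signal minus the Cre-/mdx mean of each gene (y axis), for each LysM-MRcko/mdx (red) and Cre-/mdx mouse (dark gray), with circles for replicate 1, squares for replicate 2 and triangles for replicate 3. LysM-MRcko/mdx replicate 1 is highest for the macrophage markers (1.71) and lowest for the M-band genes (-0.89), while Cre-/mdx replicate 2 stands apart in fatty acid oxidation (0.77).

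MicroRNAs are short RNAs that pair with messenger RNAs through a seed, bases 2 to 8 of the mature strand, and lower their translation and level. Among changed genes 3 were microRNA loci, Mirlet7f-1 and Mir145a, which fell, and Mir703, which rose. The array reads RNA of the locus and does not separate the mature strand from its precursor. Mirlet7f-1 had 7.31, 7.49 and 7.58 in LysM-MRcko/mdx muscles, against 9.25, 8.71 and 8.24 in Cre-/mdx muscles, and its difference of -1.27 ± 0.29 (SE) kept its call without any 1 array. Mirlet7d, which lies 1817 bases away on the same strand, had 10.48, 10.66 and 10.47 in LysM-MRcko/mdx muscles and 11.13, 11.53 and 10.94 in Cre-/mdx muscles, also without overlap, with a difference of -0.66 that is under 2-fold. Mirlet7a-1, 350 bases from Mirlet7f-1, was dimmer, with 4.79, 5.09 and 5.07 in LysM-MRcko/mdx muscles and 5.47, 5.22 and 4.60 in Cre-/mdx muscles, and its groups overlapped. The mature strands of these 3 neighbours are printed from RefSeq with the seed in capitals, to show that they share it.
let-7f-5p: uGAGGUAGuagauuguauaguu
let-7d-5p: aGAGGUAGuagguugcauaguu
let-7a-5p: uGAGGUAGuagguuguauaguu
The strands lie on the minus strand of chromosome 13 in build GRCm38.p6, at chr13:48537889-48537910, chr13:48536078-48536099 and chr13:48538239-48538260, in the order printed. The array measured 13 loci with the seed GAGGUAG, of which only Mirlet7f-1 was changed. Most of the others gave signals near the array median, where a difference could hardly be seen. Mir145a, a microRNA of smooth muscle, had 6.60, 6.68 and 7.12 in LysM-MRcko/mdx muscles, against 9.02, 8.63 and 7.60 in Cre-/mdx muscles, and its call did not depend on 1 array. Of 13 markers of pericytes and smooth muscle, the cells of vessel walls, Acta2 rose and Abcc9, a channel subunit of pericytes, fell by 1.08, while Rgs5, a signaling regulator of pericytes, differed by -0.94. Abcc9 was not called without control 1 (-0.69) or knockout 1 (-0.92). The part of vessel wall cells in the Mir145a difference was not tested. Mir703 rose by 1.03, or by 0.61 and not called without control 1, and not called without control 2 (1.07), knockout 1 (0.92) or knockout 3 (1.08).

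The listed steroid receptors and steroid-responsive genes did not move as a group. Of 18 steroid receptors and steroid-responsive genes, 1 rose and none fell, with a median of -0.13, or 0.01 without knockout 1. Sgk1, the kinase gene that aldosterone induces in kidney, had 10.16, 11.27 and 10.80 in LysM-MRcko/mdx muscles and 11.41, 10.47 and 10.81 in Cre-/mdx muscles, with full overlap. Fkbp5, a co-chaperone induced by glucocorticoids, differed by -0.46 ± 0.62 (SE). The gene that rose was Cyp2e1, an enzyme that oxidizes ethanol and fatty acids, with 16.15, 16.38 and 16.38 in LysM-MRcko/mdx muscles, against 14.44, 15.38 and 13.70 in Cre-/mdx muscles. Its knockout values lay within 0.23 of each other, the difference was 1.80 ± 0.51 (SE), and the call did not depend on 1 array. The paper proposes Cyp2e1 as a potential MR target partly because it rose in this same comparison, so its call within the list adds no support. Markers of fat cells, which also express Cyp2e1, spread widely: of 13 adipocyte markers none was changed, and their median against the control mean was 0.08, -0.27 and 1.07 in LysM-MRcko/mdx muscles and -0.19, 1.18 and -0.99 in Cre-/mdx muscles. The part of fat cells in the Cyp2e1 difference was not tested. Cdkn1a, the cell cycle inhibitor p21, had 14.76, 13.77 and 13.31 in LysM-MRcko/mdx muscles and 12.40, 12.34 and 12.96 in Cre-/mdx muscles, without overlap, and at 1.38 ± 0.60 (SE) it was not called. Of 21 endothelial markers none was changed, with a median of -0.21, and of 16 genes of the circadian clock none.

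Protein-coding genes made up 100 of the 118 genes that rose and 30 of the 37 that fell. Annotated pseudogenes made up 13 and 2, and a further 2 transcribed pseudogenes rose. Several carry the name of an abundant parent gene, such as Tubb2a-ps2, Actr3-ps, Rpsa-ps2 and Rpsa-ps10, which were picked here for their names, and their probes may take up signal of the parent. Without knockout 1 none of these 4 was called, with differences of 0.67, 0.75, 0.99 and 0.91 in the order named. The tRNA gene mt-Tk of the mitochondrial genome fell by 1.93, with 16.46, 17.28 and 15.11 in LysM-MRcko/mdx muscles and 17.93, 18.54 and 18.16 in Cre-/mdx muscles, so that all 3 knockout values lay below the controls. Gm4841 and F830016B08Rik, a pair of interferon-inducible GTPase genes in mice, fell by 1.65 and 1.59, and both kept the call without any 1 array. Gm4841 had 11.34, 12.09 and 12.45 in LysM-MRcko/mdx muscles and 13.42, 13.38 and 14.04 in Cre-/mdx muscles. Atad1, an ATPase that extracts misplaced proteins from mitochondrial membranes, fell by 1.27, and was not called without control 1 (-0.98). Fhl5, a LIM domain protein, fell by 1.15, and was not called without control 1 (-0.87), control 2 (-1.08) or knockout 1 (-0.85). The pseudogenes Fabp3-ps1 and Gm6245 fell by 1.26 and 1.25, and without control 2 neither was called (-0.79 and -0.98). Fabp3-ps1 was also not called without knockout 2 (-1.29) or knockout 3 (-1.11). Over all 65672 transcript clusters, named or not, 247 were changed (0.376%), 154 of them higher (0.234%) and 93 lower (0.142%), and the 84 changed clusters with no symbol leaned the other way from the named genes, with 28 higher and 56 lower.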

How the data were processed

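RNA of whole quadriceps from 9 mice was hybridized to Clariom D arrays, 1 mouse per array. The deposited values are gene-level log2 signals that the authors computed in Expression Console with SST-RMA, and the authors compared groups in the Transcriptome Analysis Console. Versions of these programs are not given in the sources used here. No read depth exists for arrays, and the precision is limited by 3 arrays per group.

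The values were used as deposited. A linear model on all 65672 transcript clusters and 9 arrays, with 1 mean per genotype, was fitted with limma 3.58.1 in R 4.3.3 (lmFit and eBayes, Benjamini-Hochberg adjustment), and a cluster counted as changed when the groups differed 2-fold or more with an unadjusted p under 0.05. Cluster names came from the platform annotation, updated through RefSeq. 31104 clusters had 1 symbol, 1497 several and 33071 none, and a gene with several clusters was represented by the one with the highest mean over the 9 arrays. The model was tested on simulated data first. Tables and figures were made in Python 3.11.15 with pandas 2.3.3 and matplotlib 3.10.9. Promoter and miRNA sequences were taken from RefSeq, build GRCm38.p6. The genes named are the 15 highest and 15 lowest changed genes without overlap, and genes drawn from the changed or extreme members of 65 gene lists, from steroid-responsive genes and from changed miRNA loci. Other genes were picked by name and stand for no group, among them Arg1, Tnf, Ciita, Tlr2, Tlr4, Pax7 and Myh7. The comparison, its members and the gene lists were chosen with earlier results of these data known. Of the columns with values per sample, 0 were left out.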

Additional observations from a re-analysis of the deposited data

How the results depend on the processing

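With 1 array left out in turn, between 135 and 560 transcript clusters were changed (69 to 280 higher, 66 to 280 lower) against 247 with all arrays, and between 70 and 317 genes (51 to 191 higher, 19 to 126 lower) against 155. The median differences ranged between 0.89 and 1.33 for macrophage markers, 0.76 and 1.10 for lysosomal proteases, 0.87 and 1.17 for activated fibroblast markers, 0.54 and 0.94 for tubulins, 0.285 and 0.60 for embryonic sarcomere genes, 0.18 and 0.80 for collagens, -0.65 and -0.33 for M-band genes, -0.67 and -0.18 for the citric acid cycle, -0.70 and -0.19 for complex I and -0.76 and -0.06 for fatty acid oxidation. Tukey biweight averages of each group, with p-values of the plain test given next, gave 85 higher clusters and 97 changed genes, 65 of them higher. Under these averages the medians were 0.19 for collagens, -0.12 for fatty acid oxidation and -0.29 for both M-band genes and the citric acid cycle. A plain equal-variance test without limma's moderation gave 143 clusters (89 higher, 54 lower) and 91 genes (69 higher, 22 lower). The cause of these shifts was not tested. None of the 155 changed genes changed sign under any alternative run. This follows largely from their choice by size, and several alternatives alter only the p-value, so it adds no support. Of the 155, 40 kept the call under all alternatives. Lists with few calls could change sign: the median of adipocyte markers was 0.31 with all arrays and -0.09 without Cre-/mdx replicate 3. Replicate numbers gave no sign of pairing. Over the brighter clusters, deviations from the group mean correlated at -0.169, -0.241 and -0.13 between knockout and control mice of the same number. Between mice of different numbers the values ran from -0.121 to 0.269. With 3 mice per group these values cannot settle whether the numbers mark pairs. With the replicate number as a block, 229 clusters (128 higher, 101 lower) and 135 genes (100 higher, 35 lower) were changed. A fit on the 6 arrays alone gave 211 clusters (128 higher, 83 lower) and 129 genes (96 higher, 33 lower), and 32 of the 155 lost the call. The signal ceiling of 19.93, reached in every array by 149 clusters, hides changes of the most abundant muscle transcripts.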
